A study of Homo sapiens with 16 samples.

Results

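The genes described here encode the PRMT5 methylosome and its neighbours in the methylation of Sm proteins. They are 7 genes of the 58302 listed in the counts, chosen by symbol: PRMT5, WDR77, CLNS1A, RIOK1, COPRS, PRMT1 and PRMT7. All 7 passed the filter on low counts in every comparison. HEK293 cells, a long-established line derived from human embryonic kidney, were transfected with 100 nM of a small interfering RNA (siRNA) against Gemin5 (siRNAG5) or served as control (Ctrl). RNA was sequenced from cytoplasmic lysates (Input) and from the combined heavy fractions of sucrose gradients (Polysome). This gave 16 libraries of polyadenylated RNA, 4 in each combination of fraction and treatment. For the Ctrl cells the labels read untreated, while the protocol and the study's methods name a control siRNA. The paper's first figure gives the silencing relative to that siRNA control as Ctrl, so by the paper Ctrl cells received a control siRNA. The cells carry no edited allele, and silencing lowers Gemin5 without removing it.

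The Sm proteins form the ring that wraps the small nuclear RNAs of the spliceosome. Before assembly, arginines in the tails of SmB, SmD1 and SmD3 are symmetrically dimethylated by PRMT5, a type II arginine methyltransferase that works as a complex with the WD-repeat protein WDR77 (also called MEP50). CLNS1A (pICln), RIOK1 and COPRS are adaptors that bind PRMT5 and bring it different substrates, and CLNS1A also holds Sm proteins in a ring-like intermediate that is handed to the SMN complex, in which Gemin5 recognises the small nuclear RNA. PRMT1 is the main type I arginine methyltransferase, which makes asymmetric dimethylarginine, and PRMT7 is a type III enzyme that makes monomethylarginine.

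Because the siRNA could itself touch a transcript, its letters were set against those of the 7 genes. The strand given in the labels occurs in the GEMIN5 mRNA, in exon 18 of 28 of its canonical transcript (coding sequence, chr5:154904608-154904626 of GRCh38, minus strand), so the complementary strand is the guide. The GEMIN5 target, the guide and the sites found in the 7 genes are shown 5′ to 3′, with the guide's seed (bases 2 to 8) or its match in capitals.
GEMIN5 target: ccuuaaucaagAAGAGAAa
guide: uUUCUCUUcuugauuaagg
COPRS site: aggttaaaAAGAGAAa
RIOK1 site: gacagtcaAAGAGAAggatgaca
The COPRS site lies in the 3′ UTR at the very end of the transcript (seed match at chr17:31851872-31851878, minus strand), and the RIOK1 site lies in the coding sequence (seed match at chr6:7393125-7393131, plus strand). WDR77, PRMT5, CLNS1A, PRMT1 and PRMT7 held no seed match in their canonical transcripts. A seed match in the 3′ UTR was present in 1 of the 7 genes and in 25.2% of 12436 tested genes, and one anywhere in the transcript in 2 of the 7 and in 47.7% of the 12436. The full target sequence was in none of the 7. Shorter matches and the seed of the other siRNA strand were not searched for. A direct effect of the siRNA on the 7 genes was not tested.

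WDR77 and PRMT5 stand in the same complex, and their transcripts behaved differently in the comparisons below, so the RefSeq sequence upstream of their starts (GRCh38.p14) is shown for both. Capitals mark TCTCGCGAGA in WDR77 (chr1:111449257-111449506, minus strand) and ATTGG, the reverse complement of CCAAT, in PRMT5 (chr14:22929409-22929626, minus strand). The PRMT5 stretch stops where the annotated gene begins, short of the RefSeq start. It cuts through another ATTGG (chr14:22929407-22929411), which begins 35 bases before that start and is not marked.
WDR77 upstream: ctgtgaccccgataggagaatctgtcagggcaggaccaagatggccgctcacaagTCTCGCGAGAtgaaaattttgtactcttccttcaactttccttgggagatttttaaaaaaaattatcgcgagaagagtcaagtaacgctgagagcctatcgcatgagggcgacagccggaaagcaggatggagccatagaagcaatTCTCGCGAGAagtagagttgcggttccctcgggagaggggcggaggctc
PRMT5 upstream: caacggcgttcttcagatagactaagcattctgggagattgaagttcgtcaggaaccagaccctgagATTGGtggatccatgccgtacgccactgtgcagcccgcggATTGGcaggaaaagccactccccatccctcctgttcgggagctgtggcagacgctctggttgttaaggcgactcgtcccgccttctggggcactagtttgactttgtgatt
RefSeq promoters, 250 bases before to 50 after a start, were found for all 7 genes (8 promoters, of which PRMT7 has 2). WDR77 held TCTCGCGAGA, which reads the same on both strands, in 2 copies that begin 195 and 49 bases before the start, and none of the other 6 genes held it. At least 1 copy was present in 0.424% of 35116 promoters. The motif is the longest palindrome that occurs more than once in this promoter, and it was picked after the sequence had been read. WDR77 was also the only one of the 7 with CACGTG, found in 7.26% of promoters. ATTGG on either strand was present in PRMT5 and PRMT1 and in 34.6% of promoters, CCGGAAG in CLNS1A and RIOK1 and in 10.3%, and GGGCGG in all of the 7 but PRMT5 and in 45.0%. The 7 are counted here by gene. By gene, the shares of 27305 were 0.505% for TCTCGCGAGA, 8.8% for CACGTG, 39.7% for ATTGG, 12.2% for CCGGAAG and 48.3% for GGGCGG. These matches describe letters and were not tested for binding.

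A library held 11145324 to 24511299 reads on genes. Each of the 7 genes had 194 to 9930 reads in a library, the fewest for PRMT7 in Polysome. Of the HEK293 markers, 9 of 9 had reads in Input, and PAX8 was at 0 in Polysome. PAX8 reached at most 0.0889 CPM (counts scaled to library size with TMM factors), and PAX2 and LHX1 averaged 1.2 and 1.1 CPM. The 15 liver markers summed to 80.8 to 167 CPM in the 4 Polysome Ctrl libraries. In Input Ctrl they summed to 151 and 131 in libraries 3 and 4, and to 2.69 and 1.12 in 1 and 2. The 8 siRNAG5 libraries had 0.371 to 1.26 CPM, with APOB, SERPINA1, FGA and AMBP at 0. The 7 blood markers reached 3.71 to 6.31 CPM in Polysome Ctrl and at most 2.37 elsewhere, and the 6 brain markers 7.30 to 14.9 CPM in all groups. On the third principal component (8.26% of the variance of 14958 genes), Polysome Ctrl 1, siRNAG5 1 and siRNAG5 4 scored -38.47, -35.29 and -35.59, against -2.16 to 26.26 for the other 5 Polysome libraries. GEMIN5 mRNA, the target of the siRNA, stood at 15.9, 18.9, 16.01 and 20.7 CPM in Input Ctrl 1 to 4 and at 7.46, 6.51, 6.22 and 6.68 in Input siRNAG5. Its log2 fold change (log2 FC) was -1.40 in Input and -1.44 in Polysome, and no siRNAG5 library reached the lowest Ctrl library of its fraction.

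To rank the genes against each other, levels were expressed as TPM, in which reads are divided by gene length and scaled to the library. In Input Ctrl, COPRS was the most abundant at 458 ± 26 TPM (SD, n = 4), followed by PRMT1 at 275 ± 26. PRMT5 at 157 ± 14, CLNS1A at 146 ± 3.7 and WDR77 at 125 ± 13 formed a middle tier in which neighbours overlapped. RIOK1 at 43.8 ± 2.6 TPM and PRMT7 at 7.26 ± 0.35 lay below, each without overlap with its neighbour. The order of the upper pair and of the middle genes depends on the length used. With the longest transcript in place of merged exons, PRMT1 stood at 535 TPM and COPRS at 407, and WDR77 at 93.6 lay below PRMT5 at 146 without overlap. PRMT7, the monomethylating enzyme, was the lowest with either length.

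**Figure D1:**
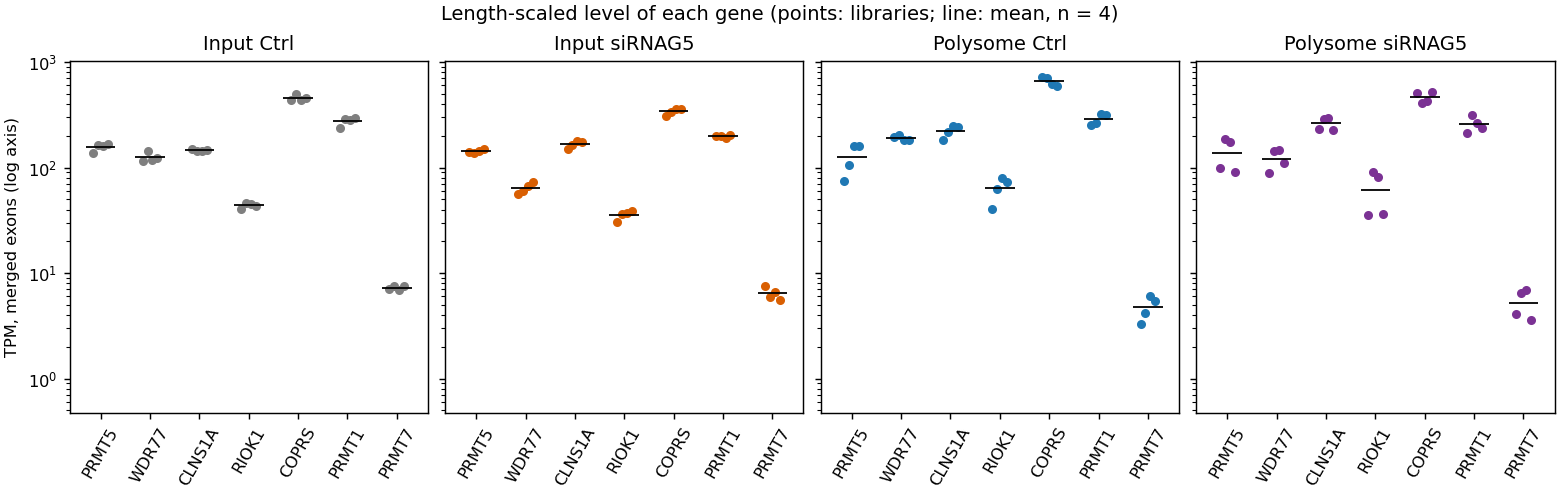
Length-scaled level (TPM over merged exons, log axis) of the 7 genes in the 4 groups, with 1 point per library and the mean as a line. COPRS lies highest and PRMT7 lowest in every group, and WDR77 lies well below PRMT5 in Input siRNAG5, at 64.0 against 143 TPM.

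In the other groups the order shifted around WDR77. In Input siRNAG5, WDR77 stood at 64.0 ± 7.4 TPM, below PRMT5 at 143 ± 5.4 with no overlap under either length. In Polysome Ctrl, WDR77 at 192 ± 10 TPM lay above PRMT5 at 125 ± 42 with no overlap, but with the longest transcript WDR77 at 142 and PRMT5 at 114 TPM overlapped. In Polysome siRNAG5, PRMT5 at 138 ± 50 TPM and WDR77 at 121 ± 28 overlapped under either length. CLNS1A at 262 ± 37 TPM and PRMT1 at 257 ± 43 overlapped there too, whereas with the longest transcript PRMT1 at 503 TPM lay above CLNS1A at 277.

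The list was drawn up with the effect of silencing on these libraries known, for WDR77 above all. The values of siRNAG5 against Ctrl are therefore given as a description, without p, and nothing is read from their counts. A gene is called lower where the edgeR quasi-likelihood test gave an adjusted p under 0.05 over all genes and a log2 FC below -0.5. In Input, 3 of the 7 were called lower (WDR77, PRMT1 and COPRS) and 0 higher, where 6.02% of 14134 genes were called lower. In CPM, the libraries of the 2 groups did not overlap for 6 of the 7, all lower in siRNAG5, where 19.1% of all genes had every siRNAG5 library below every Ctrl library. In Polysome, the same 3 genes were called lower and 0 higher, against 4.00% of 14420 genes, and in CPM the groups did not overlap for those 3, against 10.0%. The median log2 FC of the 7 was -0.43 in Input and -0.52 in Polysome, and that of all genes 0.04 and 0.03.

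WDR77, the partner that PRMT5 needs for full activity, differed most. It stood at 166, 207, 168 and 164 CPM in Input Ctrl 1 to 4 and at 73.5, 77.0, 86.0 and 88.5 CPM in Input siRNAG5. In Polysome it stood at 187, 208, 136 and 151 CPM in Ctrl and at 65.2, 77.9, 80.7 and 85.7 CPM in siRNAG5. The highest siRNAG5 library lay well under the lowest Ctrl library in both fractions, and in bulk RNA a lower level in every cell cannot be told apart from a loss in some cells. The log2 FC was -1.10 (SE 0.08) in Input and -1.10 (SE 0.17) in Polysome. As a description, 33 of 14134 genes in Input (0.233%) and 150 of 14420 in Polysome (1.04%) had a lower one. WDR77 was listed with this effect known, so nothing is read from its place among all genes. The call was made in all 14 alternative fits of each fraction, with log2 FC of -1.19 to -1.01 in Input and -1.20 to -0.97 in Polysome. Without Input Ctrl 3 and 4, the Input libraries with liver reads, the value in Input was -1.19. In Polysome all Ctrl libraries had such reads, and their part in the values there was not tested. Reads of WDR77 and of a lncRNA that shares 25.1% of its exon bases on the same strand (ENSG00000243960, 65 reads in all libraries) could not be assigned where they overlap, and WDR77 also shares 90 exon bases with ATP5PB on the other strand.

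PRMT5 itself, the catalytic subunit, differed far less. It stood at 238, 288, 280.1 and 275 CPM in Input Ctrl and at 223, 218, 223 and 223 CPM in Input siRNAG5, so that the siRNAG5 libraries lay close together just below all Ctrl libraries. The log2 FC of -0.27 (SE 0.07) did not reach the fold threshold. In Polysome it stood at 86.1, 131, 145 and 159 CPM in Ctrl and at 90.0, 124, 119 and 86.2 CPM in siRNAG5, with overlapping groups and a log2 FC of -0.26 (SE 0.20). By mean TPM, PRMT5 in Polysome was higher in siRNAG5, at 138 against 125 in Ctrl. The 3 Polysome libraries that stand apart on the third component were the 3 lowest for PRMT5, at 86.1 to 90.0 CPM against 119 to 159 in the other 5.

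Among the adaptors, COPRS, which recruits PRMT5 to histones, was the one called lower. It stood at 322, 365, 323 and 316 CPM in Input Ctrl and at 207, 223, 234 and 225 CPM in Input siRNAG5, without overlap and with a log2 FC of -0.56 (SE 0.07). In Polysome it stood at 352, 370, 236 and 251 CPM in Ctrl and at 194, 115, 121 and 210 CPM in siRNAG5. These groups did not overlap either, but each was split, and the siRNAG5 libraries 1 and 4, which stand apart, were the upper ones. In Ctrl the upper ones were libraries 1 and 2, of which Ctrl 1 stands apart and Ctrl 2 does not. The log2 FC in Polysome was -0.88 (SE 0.24), and -1.22 (SE 0.21) without the 3 libraries that stand apart. That fit leaves out both upper siRNAG5 libraries but keeps Ctrl 2, the highest of all. The call in Polysome was made in only 2 of 8 fits that left out 1 library, those without Ctrl 3 and without siRNAG5 4, and in 6 of 6 other alternative fits.

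RIOK1, an atypical kinase that competes with CLNS1A for PRMT5, stood at 63.4, 73.0, 70.4 and 63.2 CPM in Input Ctrl and at 43.0, 52.0, 52.2 and 52.0 CPM in Input siRNAG5. Its Input groups did not overlap, and the log2 FC of -0.43 (SE 0.08) stayed within the fold threshold. In Polysome it stood at 42.4, 69.6, 64.7 and 64.9 CPM in Ctrl and at 28.7, 54.2, 49.1 and 31.1 CPM in siRNAG5. The 3 libraries that stand apart were again the 3 lowest, the groups overlapped, and the log2 FC was -0.52 (SE 0.23). By mean TPM, RIOK1 in Polysome differed little, at 60.8 in siRNAG5 against 63.8 in Ctrl. CLNS1A, the chaperone of the Sm proteins, was the one gene of the 7 whose log2 FC in Input was not below 0. It stood at 369, 353, 348 and 333 CPM in Input Ctrl and at 335, 362, 386 and 358 CPM in Input siRNAG5, with overlapping groups and a log2 FC of 0.05 (95% interval -0.07 to 0.17). In Polysome its log2 FC was -0.16 (95% interval -0.44 to 0.11), whereas by mean TPM it was higher in siRNAG5, at 262 against 222 in Ctrl.

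**Figure D2:**
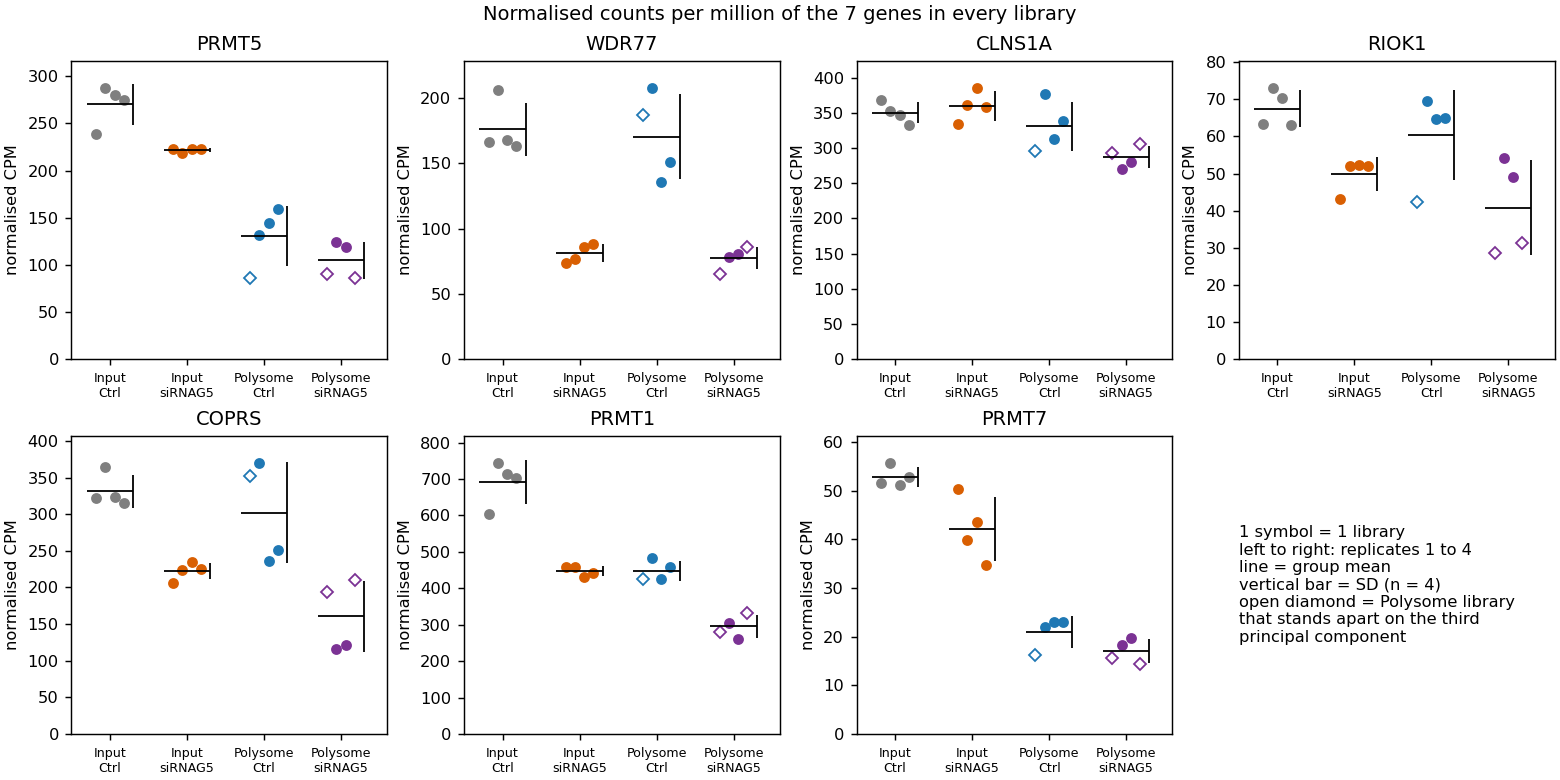
Normalised CPM of the 7 genes in each of the 16 libraries, with the group mean as a line and the SD (n = 4) as a bar, on linear axes from 0. WDR77 is lower in siRNAG5 in both fractions with no overlap, PRMT5 and PRMT7 are lower in Polysome than in Input, and the open diamonds (Polysome Ctrl 1, siRNAG5 1 and siRNAG5 4) are the lowest Polysome libraries for PRMT5 and RIOK1.

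Of the other methyltransferases of the list, PRMT1 was called lower in both fractions. It stood at 604, 743, 713 and 702 CPM in Input Ctrl and at 459, 459, 432 and 442 CPM in Input siRNAG5, with a log2 FC of -0.61 (SE 0.07). In Polysome it stood at 426, 483, 424 and 459 CPM in Ctrl and at 281, 305, 261 and 333 CPM in siRNAG5, again without overlap, with a log2 FC of -0.56 (SE 0.14). In TPM, which carry no TMM factors, the Polysome groups of PRMT1 overlapped, at 250 to 320 in Ctrl and 212 to 313 in siRNAG5. The Polysome call was made in 2 of 8 fits that left out 1 library, the same 2 as for COPRS, and in 4 of 6 other alternative fits. PRMT7 stood at 51.6, 55.7, 51.1 and 52.8 CPM in Input Ctrl and at 50.4, 40.0, 43.7 and 34.7 CPM in Input siRNAG5, with a log2 FC of -0.31 (SE 0.09) within the fold threshold. In Polysome its log2 FC was -0.26 (SE 0.16), with overlapping groups, whereas by mean TPM it was higher in siRNAG5, at 5.26 against 4.72 in Ctrl.

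The comparison of Polysome with Input shows how much of each transcript was found in the polysomal library relative to the other transcripts. The genes were listed by symbol, but with earlier results of these data known, so the p-values below are not free of that choice. Counts are scaled with TMM factors, so a lower value is a lower level relative to most other genes. It need not be a lower share of all reads and is not a measured loss of ribosomes. TPM carry no such factors. By mean TPM, PRMT5 stood at 157 in Input Ctrl, 125 in Polysome Ctrl, 143 in Input siRNAG5 and 138 in Polysome siRNAG5. PRMT1 was higher in Polysome, at 287 against 275 in Ctrl and 257 against 197 in siRNAG5. PRMT7 was lower, at 4.72 against 7.26 and 5.26 against 6.40. In Ctrl cells, PRMT7, PRMT5 and PRMT1 were called lower in Polysome and 0 of the 7 were called higher, where 18.8% of 13666 genes were called lower. The same 3 had Polysome libraries all below the Input libraries in CPM, against 23.2% of all genes. In siRNAG5 cells the same 3 were lower and 0 higher, against 21.2% of 14795 genes, and in CPM 4 of the 7 (these and CLNS1A) did not overlap, against 27.5%. In TPM, CLNS1A and PRMT1 in siRNAG5 lay higher in Polysome, also without overlap. CLNS1A ran from 229 to 297 TPM against 151 to 177 in Input, and PRMT1 from 212 to 313 against 189 to 204. WDR77, CLNS1A, RIOK1 and COPRS were called in neither treatment. The median log2 FC of the 7 was -0.15 in Ctrl and -0.40 in siRNAG5, and that of all genes -0.03 and -0.04.

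PRMT5 fell in Polysome by 1.04 on the log2 scale in Ctrl (SE 0.16, adjusted p = 6.96e-05 from edgeR), with 86.1 to 159 CPM in Polysome against 238 to 288 in Input. In siRNAG5 it fell by 0.99 (SE 0.14, adjusted p = 0.000116), with 86.2 to 124 CPM against 218 to 223. PRMT7 fell by 1.31 in Ctrl (SE 0.13, adjusted p = 9.55e-07) and by 1.22 in siRNAG5 (SE 0.15, adjusted p = 3.90e-05). Its Polysome libraries stood at 16.2, 21.9, 23.1 and 23.0 CPM in Ctrl and at 15.7, 18.3, 19.7 and 14.4 CPM in siRNAG5, all below the Input libraries. Both genes were called lower in all alternative fits. Without the 3 libraries that stand apart the size was smaller, by 0.89 for PRMT5 in Ctrl and 0.69 in siRNAG5, as log2 values, and by 1.21 and 0.97 for PRMT7. PRMT1 fell by 0.61 in Ctrl (SE 0.13, adjusted p = 0.000984) and by 0.52 in siRNAG5 (SE 0.11, adjusted p = 0.00207). The latter lies close to the fold threshold, and 4 alternative fits in siRNAG5 put it within that threshold, those without Polysome siRNAG5 1 or 3, without the 3 libraries together (log2 FC -0.48), and without a filter on low counts.

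WDR77 showed no such difference in these fits. Its log2 FC of Polysome against Input was -0.03 in Ctrl (95% interval -0.32 to 0.25, adjusted p = 0.867) and 0.01 in siRNAG5 (95% interval -0.22 to 0.24, adjusted p = 0.939). Under this scaling, the intervals leave room for a modest difference in either direction, but not for one of the size seen for PRMT5. By mean TPM, which carry no TMM factors, WDR77 was higher in Polysome, at 192 against 125 in Ctrl and 121 against 64.0 in siRNAG5. CLNS1A, RIOK1 and COPRS were higher there too, so this was not particular to WDR77. CLNS1A stood at 222 against 146 TPM in Ctrl and at 262 against 166 in siRNAG5. RIOK1 stood at 63.8 against 43.8 and at 60.8 against 35.8 TPM, and COPRS at 661 against 458 and at 468 against 341. With TMM factors, the log2 FC of CLNS1A was -0.07 (95% interval -0.31 to 0.17) in Ctrl and -0.24 (95% interval -0.44 to -0.04, adjusted p = 0.0679) in siRNAG5. RIOK1 was at -0.15 (SE 0.14) in Ctrl and -0.20 (SE 0.20) in siRNAG5, and in the latter it changed sign to 0.23 (SE 0.10, adjusted p = 0.0400), within the fold threshold, without the 3 libraries that stand apart. COPRS was at -0.12 (SE 0.16, adjusted p = 0.564) in Ctrl and at -0.40 (SE 0.18, adjusted p = 0.0812) in siRNAG5. Without the libraries that stand apart, COPRS in siRNAG5 was at -0.73 (SE 0.08, adjusted p = 8.82e-08) and was called lower, and it was also called without Polysome siRNAG5 4 alone. In TPM the direction was the opposite. Polysome siRNAG5 2 and 3, which the fit at -0.73 kept, stood at 411 and 426 TPM, against 310 to 361 in Input siRNAG5.

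**Figure D3:**
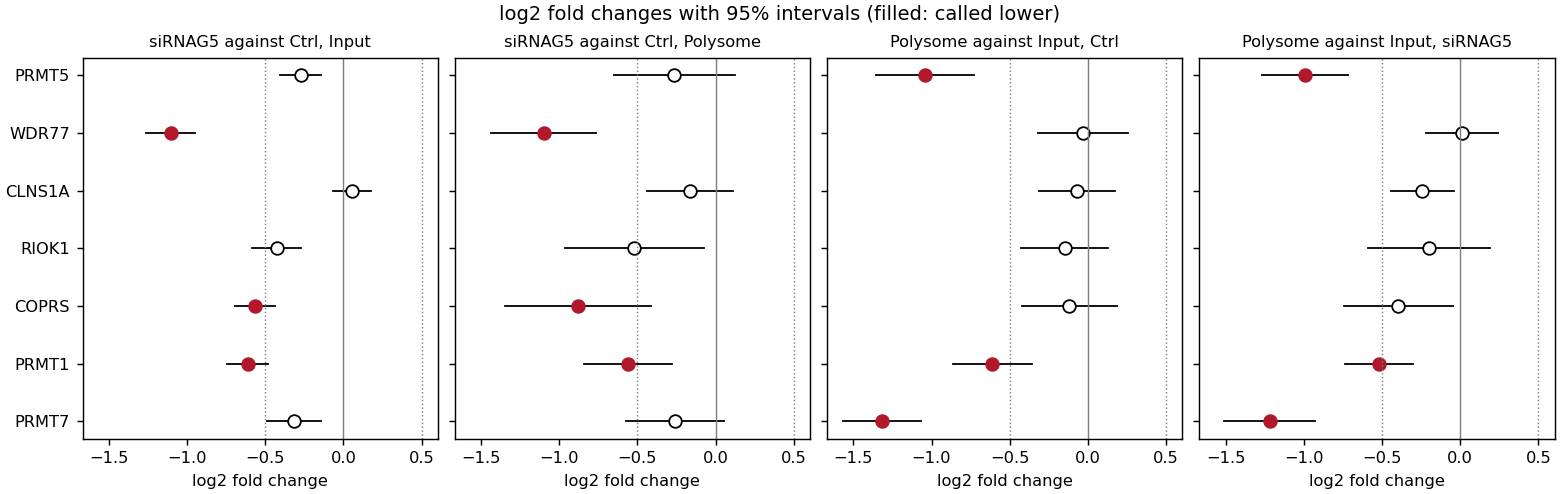
The log2 FC of the 7 genes with 95% intervals in 4 comparisons, with filled points for genes called lower and dotted lines at the fold threshold of 0.5 on either side of 0. Silencing (left pair) has WDR77 at -1.10 in both fractions and PRMT5 near -0.27, whereas Polysome against Input (right pair) has PRMT5 near -1 and WDR77 near 0.

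Because both subunits are counted in the same library, their ratio does not depend on how libraries are scaled. In Input Ctrl 1 to 4 the TPM of WDR77 was 0.851, 0.877, 0.733 and 0.727 of that of PRMT5, and in Polysome Ctrl 2.65, 1.93, 1.15 and 1.16. In Input siRNAG5 the ratio was 0.403, 0.430, 0.471 and 0.484, and in Polysome siRNAG5 0.884, 0.764, 0.827 and 1.21. The Polysome libraries lay above all Input libraries of the same treatment. The mean ratio was 0.797 ± 0.078 in Input Ctrl and 1.72 ± 0.72 in Polysome Ctrl, and 0.447 ± 0.037 and 0.922 ± 0.20 in siRNAG5 (SD, n = 4 each). In both treatments the two-sided exact permutation test gave p = 0.0286, the smallest that 4 against 4 libraries allow, and 0.0381 after adjustment over 12 such ratio tests. If Input and Polysome libraries of the same number are taken as pairs, the ratio was higher in Polysome in 4 of 4 pairs of each treatment, and the exact permutation test by sign flips gave p = 0.125, the smallest that 4 pairs allow, so that as pairs no ratio could pass. The mean log2 ratio was higher in Polysome by 1.02 in Ctrl and by 1.02 in siRNAG5, and by 0.79 and 0.83 without the 3 libraries that stand apart. These differences do not depend on the gene length used. As a description of silencing, the WDR77 ratio in siRNAG5 lay below all Ctrl libraries in Input, and in Polysome the highest siRNAG5 library (1.21) overlapped the lowest Ctrl libraries (1.15 and 1.16).

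The other genes were set against PRMT5 in the same way. CLNS1A per PRMT5 went from 0.934 ± 0.11 in Input to 1.90 ± 0.45 in Polysome in Ctrl and from 1.16 ± 0.068 to 2.03 ± 0.48 in siRNAG5 (exact permutation p = 0.0286 in each, n = 4). RIOK1 and PRMT1 per PRMT5 were also higher in Polysome in both treatments, and COPRS in Ctrl, all with the same exact permutation p. COPRS per PRMT5 in siRNAG5 did not pass (3.89 ± 1.8 in Polysome against 2.38 ± 0.13 in Input, exact permutation p = 0.343, n = 4), since Polysome siRNAG5 2 and 3 lay within or under the range of the Input libraries. PRMT7 per PRMT5 passed in neither treatment (exact permutation p = 0.0571 in Ctrl and 0.171 in siRNAG5). These 12 tests share PRMT5 as the denominator and so are not independent of each other. PRMT5 was itself low in Polysome against Input, with only 6.86% of genes lower in Ctrl and 10.4% in siRNAG5. Most genes divided by PRMT5 would therefore be higher in Polysome. The higher ratios, that of WDR77 included, restate the value of PRMT5 and show nothing particular to the other genes.

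**Figure D4:**
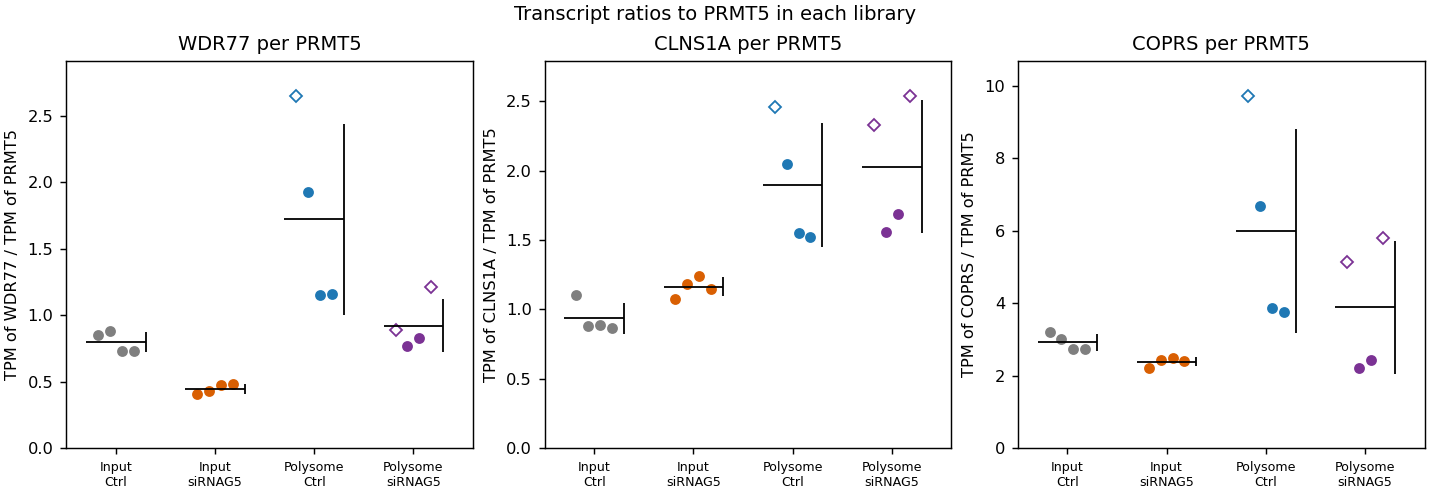
TPM of WDR77, CLNS1A and COPRS divided by the TPM of PRMT5 in each library, with the mean as a line and the SD (n = 4) as a bar. The WDR77 ratio has a mean of 0.797 in Input Ctrl, 0.447 in Input siRNAG5, 0.922 in Polysome siRNAG5 and 1.72 in Polysome Ctrl, and the COPRS ratio in Polysome siRNAG5 splits into the libraries that stand apart (open diamonds) and the others.

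Whether silencing altered the level in Polysome relative to Input was tested as the difference between the log2 FC of Polysome against Input in siRNAG5 and in Ctrl. None of the 7 genes was called, where 0% of 14958 genes were called by edgeR (1089 genes had an unadjusted p under 0.05, and DESeq2 called 11 lower and 18 higher). The estimates were -0.03 for PRMT5 (95% interval -0.46 to 0.41), -0.02 for WDR77 (-0.39 to 0.35), -0.24 for CLNS1A (-0.53 to 0.04), -0.13 for RIOK1 (-0.63 to 0.37), 0.02 for PRMT1 (-0.28 to 0.32) and 0.02 for PRMT7 (-0.36 to 0.40). COPRS had the lowest, at -0.34 (95% interval -0.84 to 0.16, adjusted p = 0.827). Without Polysome Ctrl 1, siRNAG5 1 and siRNAG5 4, COPRS was at -0.68 (SE 0.18, adjusted p = 0.0290) and was called lower, in a fit that called 659 genes lower and 106 higher of 15343. Its adjusted p over the alternatives ran from 0.0290 to 0.973. Within the Polysome libraries that stand apart, COPRS stood at 352 CPM in Ctrl against 194 and 210 in siRNAG5, and within the others at 370, 236 and 251 against 115 and 121.

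The genes that work next to the methylosome were counted from lists, again without a test of a list. Of all genes tested, 6.02% were called lower and 10.5% higher on silencing in Input, and 4.00% and 3.95% in Polysome. For Polysome against Input, 18.8% were called lower and 20.8% higher in Ctrl, and 21.2% and 23.9% in siRNAG5. In lists this small 1 gene moves the share called by much, and the counts below are not read as a result about any list. Of the 8 Sm proteins, the substrates and ring subunits, 7 were tested, and 1 was called lower on silencing in Input (SNRPG, log2 FC -0.55) and 1 in Polysome (SNRPF, -0.87), with medians of -0.44 and -0.66. In Polysome against Input, 0 of the 7 Sm proteins were called in Ctrl, and 1 was called lower in siRNAG5 (SNRPF, -0.53). Of the 10 genes of the SMN complex, which receives the methylated Sm proteins, 2 were called lower on silencing in Input and 2 in Polysome, led by GEMIN5, with medians of -0.17 and -0.27. In Polysome against Input, 3 of the 10 were called lower in Ctrl, led by GEMIN5 (-1.25), and 3 in siRNAG5, led by GEMIN4 (-1.26). Of the 2 Sm-like proteins of the U7 particle, LSM10 was called lower on silencing in Input (-0.55) and in Polysome against Input in Ctrl (-0.64), and LSM11 was called higher in Polysome against Input in siRNAG5 (0.55).

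Of the 6 other protein arginine methyltransferases, 5 were tested and 0 were called on silencing in either fraction, with medians of -0.14 and 0.00. In Polysome against Input in Ctrl, PRMT9 was called lower (-0.69) and CARM1, a coactivator-associated type I enzyme, higher (0.61), and in siRNAG5 2 of the 5 were called higher, led by CARM1 (0.71). Of the 6 genes of the S-adenosylmethionine cycle, which supplies the methyl group, 0 of 5 tested were called on silencing in either fraction. AHCY, which removes the S-adenosylhomocysteine left after methyl transfer, was called lower in Polysome against Input in Ctrl (-0.79) and in siRNAG5 (-1.36), and 2 genes of the cycle were called higher in each, led by MTAP in Ctrl (1.18) and MAT2B in siRNAG5 (0.85). Of the 4 Tudor domain proteins, readers of methylarginine, SND1 was called higher on silencing in Input (0.63) and lower in Polysome against Input in Ctrl (-1.20) and in siRNAG5 (-1.51), and SMNDC1 was called higher there (0.55 and 0.73). Of the 8 genes for export, cap and import of small nuclear RNAs, TOE1, a 3′ exonuclease, was called lower on silencing in Input (-0.55) and in Polysome (-0.56). In Polysome against Input, 2 of the 8 were called lower and 2 higher in each treatment, led by TOE1 (-0.82 and -0.78) and by NCBP2, a subunit of the cap-binding complex (0.76 and 0.84). Over all genes, that comparison called 18.8% lower and 20.8% higher in Ctrl, and 21.2% and 23.9% in siRNAG5. These counts too are not read as a result about any list.

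Finally, the genes whose levels ran most alike were found by the root mean square difference of log2 CPM, each gene centred on its own mean, over the 16 libraries and 7565 genes. Near to WDR77 were L3HYPDH (difference 0.138) and RRP36 (0.162), where the median over all genes was 0.643. L3HYPDH is a dehydratase of hydroxyproline and RRP36 a factor of ribosomal RNA processing. Nearest to PRMT5 were ATIC (difference 0.0854), an enzyme of purine synthesis, CCT5 (0.111), a subunit of the cytosolic chaperonin, and TUBA1B (0.118), an alpha-tubulin, where the median over all genes was 0.610. The measure follows fraction and treatment together: L3HYPDH and RRP36 had log2 FC of -1.20 and -0.94 on silencing in Input, and the 3 nearest to PRMT5 had log2 FC of -1.05 to -1.03 in Polysome against Input in Ctrl.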

How the data were processed

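RNA-seq counts of 16 libraries (Input and Polysome, Ctrl and siRNAG5, 4 each) were used. The authors made stranded poly(A) libraries, aligned reads with STAR 2.5.3a to GRCh38, counted reads per Ensembl gene with QoRTs, and deposited raw counts. Whether counting used the strand is not given in the sources used here, so reads of overlapping genes on opposite strands (PRMT5 and PRMT5-AS1) may be mixed. Multi-mapped reads were listed apart from genes (4.88 to 6.04% in Input, 21.2 to 42.4% in Polysome) and left out, so reads shared with processed pseudogenes of the genes described may be missing.

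Coordinates, lengths and names are from GENCODE v44 (GRCh38), which named 57532 of 58302 identifiers. The test was edgeR's quasi-likelihood test (edgeR 4.0.16, R 4.3.3) after filterByExpr and TMM scaling, with Benjamini-Hochberg adjustment over all genes. Called means adjusted p under 0.05 and log2 FC beyond 0.5. Silencing was fitted per fraction, Polysome against Input per treatment, and their interaction over the 16 libraries. CPM are TMM-normalised over the 16 libraries. TPM use reads per merged exon length. Intervals are 1.96 SE. Ratios were compared with exact permutation tests. Scripts were tested on simulated counts. The paper describes independent biological samples.

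Members and lists were chosen with earlier results of these data known. Named genes are the 7, GEMIN5, the 3 genes most similar to WDR77 and to PRMT5 (mean log2 CPM of at least 3; 1 of those for WDR77 is not reported here), and, in other lists, the called gene with the largest value in each direction. Alternatives were DESeq2 1.42.0, limma 3.58.1 voom, RLE factors, no filter, 1 fit of 16 libraries, a replicate block, leaving out libraries, and, chosen after seeing the data, leaving out Input Ctrl 3 and 4 together, leaving out libraries from the WDR77 to PRMT5 ratio, and taking same-numbered Input and Polysome libraries as pairs in the ratio tests.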

Additional observations from a re-analysis of the deposited data

Results flagged for a closer look

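A library was set apart where its gap to the nearest of the other 3 took up more of the range of its group than the 95% critical value of Dixon's test. This was tested in 28 groups of 4 libraries (7 genes in 4 groups) and met in 4, and chance gives about 1 in 20. In Input Ctrl, replicate 2 was highest for WDR77, at 206.6 CPM against 163.6 to 168.2, and for COPRS, at 364.8 CPM against 315.5 to 323.1. In Input siRNAG5, replicate 1 was lowest for RIOK1, at 43.0 CPM against 52.0 to 52.2, and replicate 2 was lowest for PRMT5, at 218.3 CPM against 222.7 to 223.0. No Polysome group met the rule. The causes were not tested.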

How the results depend on the processing

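The counts of the 7 genes called were 3 in Input silencing and in Polysome against Input in Ctrl under every alternative. On silencing in Polysome, 1 to 3 genes were called when 1 library was left out, with 1 in the 6 fits without Ctrl 1, 2 or 4 or without siRNAG5 1, 2 or 3, where COPRS and PRMT1 lost the call, and RIOK1 joined with all 16 libraries in 1 fit. In Polysome against Input in siRNAG5, 2 to 4 genes were called with 1 library left out. The difference between the fractions gave 0 calls, and 1 (COPRS) without Polysome Ctrl 1, siRNAG5 1 and siRNAG5 4. The causes were not tested. Input and Polysome RNA came from the same lysates, but no source used here says that a replicate number marks a lysate, so whether the numbers pair the libraries is not known. Deviations of same-numbered libraries correlated at -0.207 to 0.222 between Input and Polysome and at -0.53 to 0.483 between treatments. Between Input and Polysome, 2 of 4 numbers in Ctrl and 2 of 4 in siRNAG5 correlated best with their own, and between treatments 1 of 4 in Input and 0 of 4 in Polysome. With the replicate block the counts were 3, 2, 3, 3 and 0, with PRMT1 lost in Polysome silencing, and no other call of the 7 was changed. As pairs, the 9 ratios to PRMT5 with an exact permutation p = 0.0286 had p = 0.125, the smallest 4 pairs allow.

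The sign turned only for values that were not called. In Polysome against Input, WDR77 ran from -0.159 to 0.0762 in Ctrl and from -0.0391 to 0.0929 in siRNAG5 with 1 library left out, and was at -0.0704 with all 16 libraries in 1 fit, and RIOK1 in siRNAG5 was at 0.231 without the 3 Polysome libraries. For the difference between the fractions, DESeq2 and RLE factors gave 0.0102 each for PRMT5 and 0.0151 and 0.0150 for WDR77, and no filter gave 0.0158 and 0.0190. Without the 3 libraries PRMT5 was at 0.0496, WDR77 at 0.0741, RIOK1 at 0.0924, PRMT1 at -0.0451 and GEMIN5 at 0.0396. With 1 library left out it ran from -0.159 to 0.0825 for PRMT5, from -0.117 to 0.0867 for WDR77, from -0.277 to 0.00856 for RIOK1, from -0.0409 to 0.0988 for PRMT1, from -0.0654 to 0.114 for PRMT7 and from -0.160 to 0.0501 for GEMIN5. The log2 ratio of COPRS to PRMT1 in TPM was 0.74 with merged exons and -0.39 with the longest transcript. Of the 3 genes nearest to PRMT5, 2 were shared with the mean absolute difference. Depth limits PRMT7 and GEMIN5 most, with as few as 194 and 41 reads in a library.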
